A study of Mus musculus with 40 samples.

Results

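Loss of Sting on a Dnmt3a-null background was examined in c-kit+ bone marrow cells, a mixed fraction of blood stem and progenitor cells. Compared were 3 libraries of the double knockout (DKO, Dnmt3a and Sting knocked out) and 2 libraries of the Dnmt3a knockout (Dnmt3a KO, Sting present). These 5 libraries were picked by their labels out of 40 libraries of mouse bone marrow RNA. Every group of the comparison is labelled a Dnmt3a knockout, so the comparison asks what the loss of Sting changes on that background. The other 4 c-kit+ libraries, 2 wild type (WT) and 2 Sting knockout (Sting KO), entered the same fit and show the loss of Sting with Dnmt3a present. The design text names a floxed Dnmt3a allele deleted by Mx1-Cre, a recombinase whose promoter is itself switched on by interferon. How the deletion was induced, which animals carried the Cre, the nature of the Sting allele, and the age and strain of the mice were not given in the sources used here. RNA was amplified as SMART-Seq2 cDNA, and the deposited values are raw read counts per gene and per subfamily of transposable elements (TE). The 5 libraries held 27.4 to 36.4 M gene reads and 1.02 to 1.28 M TE reads. Levels are CPM, counts per 1 M gene reads after TMM normalization, and each log2 fold change has its standard error (SE). Tests are edgeR's quasi-likelihood tests, with p-values adjusted by Benjamini and Hochberg's method over every tested gene, and calls were made at an adjusted p under 0.05. The labels name no animals, so the p-values rest on library-to-library spread, which may be technical. In a mixed fraction, fewer cells of a type and less RNA per cell cannot be told apart.

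Sting, encoded by Tmem173, is the membrane adaptor that passes on the signal of cytosolic DNA. The enzyme cGAS (Mb21d1) binds such DNA and makes a cyclic dinucleotide, Sting binds it, and the kinase Tbk1 then activates the transcription factor Irf3, which induces type I interferon. Interferon acts through the receptors Ifnar1 and Ifnar2, the kinases Jak1 and Tyk2 and a complex that holds Stat2 and Irf9, which binds a promoter element of repeated GAAA letters and switches on the interferon-stimulated genes. Dnmt3a, a DNA methyltransferase, is one of the genes most often mutated in clonal haematopoiesis, where mutant stem cells outgrow the others.

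In c-kit+ cells with the Dnmt3a knockout, the loss of Sting was accompanied by lower levels of interferon-stimulated genes. Of 16026 tested genes, 25 were called lower in DKO (0.156%) and 0 were called higher. At an unadjusted p under 0.05 there were 647 lower and 621 higher genes. DESeq2 called 71 lower and 28 higher, and limma-voom called 27 lower and 1 higher. Besides Tmem173 itself, 21 of the 25 belonged to 6 lists of interferon genes, which hold 100 tested members in all. The remaining 3 were Helz2, Rnf213 and Usp26. In all 25, each of the 3 DKO libraries lay below both Dnmt3a KO libraries, against 12.8% of all tested genes that lay so and 12.6% that lay the other way round. The count rested on both Dnmt3a KO libraries: it was 1 without Dnmt3a KO 1 and 2 without Dnmt3a KO 2, the lone library then being assumed to vary like the others. It was 74 without DKO 1, 9 without DKO 3 and 14 without WT 1. Both Dnmt3a KO libraries and DKO 1 carried Xist, made from an inactivated X chromosome (1810 to 2250 CPM), whereas DKO 2, DKO 3, WT and Sting KO carried Y-chromosome transcripts. With DKO 1 alone against both Dnmt3a KO libraries, all 25 fold changes remained negative and 3 genes were called. A term for Xist in the fit of 9 libraries left 1 call, Tmem173, and a fit of the 5 libraries alone also gave 1 call.

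Promoters of called genes were searched for the element through which interferon acts. Its letters, GAAA then any NN then GAAA without a gap, were searched on both strands in RefSeq promoters (GRCm38.p6, 250 bases before to 50 after the start). The motif was present in 9 of 17 called genes with a promoter in the table (52.9%) and in 27 of 65 interferon-list genes that were tested and not called (41.5%). Over all tested genes with a promoter it was present in 484 of 12130 (3.99%). A match describes the letters and says nothing of binding. The 4 promoters below belong to the called interferon genes with the lowest adjusted p that held the motif before the start. Each is written 5′ to 3′ along the gene's strand and ends at the base before the start, with motif letters in capitals.
Oas3, chr5:120777660-120777909, minus strand: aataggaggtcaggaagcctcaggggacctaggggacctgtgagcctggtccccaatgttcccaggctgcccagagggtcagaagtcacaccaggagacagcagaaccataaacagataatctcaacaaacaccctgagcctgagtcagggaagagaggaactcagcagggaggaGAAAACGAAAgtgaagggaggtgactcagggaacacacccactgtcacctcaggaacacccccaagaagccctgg
Oas1a, chr5:120907526-120907775, minus strand: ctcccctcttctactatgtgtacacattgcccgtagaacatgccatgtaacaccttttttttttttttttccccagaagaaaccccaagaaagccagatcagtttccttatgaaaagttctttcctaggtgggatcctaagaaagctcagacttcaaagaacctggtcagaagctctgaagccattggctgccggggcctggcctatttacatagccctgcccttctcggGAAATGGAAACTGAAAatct
Ifit3, chr19:34583279-34583528, plus strand: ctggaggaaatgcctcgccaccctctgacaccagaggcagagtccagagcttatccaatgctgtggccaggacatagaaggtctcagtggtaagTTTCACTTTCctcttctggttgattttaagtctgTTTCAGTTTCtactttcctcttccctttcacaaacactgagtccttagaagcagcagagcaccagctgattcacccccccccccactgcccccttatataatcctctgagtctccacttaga
Tgtp2, chr11:49064213-49064462, minus strand: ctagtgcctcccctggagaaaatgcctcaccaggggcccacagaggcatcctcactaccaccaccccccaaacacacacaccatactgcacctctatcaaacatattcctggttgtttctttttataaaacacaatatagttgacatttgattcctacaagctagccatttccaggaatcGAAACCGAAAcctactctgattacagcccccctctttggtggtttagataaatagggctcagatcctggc
Oas3 and Tgtp2 hold 1 match each, at 75 and 70 bases before the start. Bases just after the listed start were found in a transcript of the gene for Oas3, Oas1a and Ifit3. For Tgtp2 they were not, so its start is less certain. Oas1a holds 2 overlapping matches, at 20 and 14 bases before the start, and Ifit3 holds 2 on the opposite strand, at 156 and 122 bases before it.

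The targeted genes followed the labels. Tmem173 was at 43.5 and 46.3 CPM in Dnmt3a KO, against 10.4, 10.5 and 11.5 CPM in DKO. The groups lay far apart, and transcript remained in every DKO library. The log2 fold change was -2.06 (SE 0.107, adjusted p = 8.46e-05). Dnmt3a was at 48.0 and 47.8 CPM in Dnmt3a KO, against 41.9, 50.9 and 49.95 CPM in DKO, below the 79.2 to 89.1 CPM of WT. Dnmt3a transcript thus remained in every library of both groups, with means of 47.9 and 47.6 CPM against 84.1 CPM in WT. The source of this transcript was not tested. The groups overlapped for Dnmt3a, with a log2 fold change of -0.01 (adjusted p = 0.991). Of the 122 other tested genes within 10 Mb of Tmem173, 0 were called, beside 0.156% of all tested genes. Their lowest adjusted p was 0.597. At such a share, a count of 0 among 122 genes says little about the region.

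Upstream of Sting and beside it, the other genes of the DNA-sensing pathway were not called. Of 17 tested members of that list, only Tmem173 passed the test, and the median log2 fold change was -0.02, beside 0.01 over all tested genes. Tbk1 was at 81.2 and 81.8 CPM in Dnmt3a KO, against 83.2, 99.3 and 81.5 CPM in DKO. Its groups overlapped. Irf3 was at 54.0 and 48.9 against 54.7, 50.9 and 52.5 CPM, again overlapping. Zbp1, a sensor of Z-form nucleic acid that interferon induces, was at 7.19 and 4.23 against 2.05, 1.05 and 1.67 CPM (log2 -1.84, SE 0.383, adjusted p = 0.274). Its groups did not overlap, but the test was missed. The interferon genes themselves were almost silent: of 18 ligands in the table only Ifng reached the filter on low counts, and the others peaked at 0.149 CPM.

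Among receptors, kinases and transcription factors, 1 of 15 tested genes was called, Irf7, the factor that amplifies interferon production. Irf7 (chromosome 7, 141263183 to 141266499) was at 32.0 and 20.99 CPM in Dnmt3a KO, against 5.89, 3.97 and 5.13 CPM in DKO. Every DKO library was below the 9.70 and 8.40 CPM of WT as well. The log2 fold change was -2.40 (SE 0.217, adjusted p = 0.00668). The median of this list was 0.00. Irf9, the DNA-binding partner of Stat2, was at 62.4 and 59.5 CPM in Dnmt3a KO, against 35.04, 20.96 and 29.9 CPM in DKO. Its groups did not overlap, and it missed the test (log2 -1.09, SE 0.182, adjusted p = 0.0809). Ifnar1 (log2 0.08), Ifnar2 (0.02), Jak1 (-0.02) and Tyk2 (0.01), through which interferon is received, had fold changes near 0, whereas Irf7 was 5.30-fold lower in DKO. PIAS, SOCS and STAT genes, which restrain or carry cytokine signals, had 0 of 20 called (3 lower and 2 higher at an unadjusted p under 0.05) and a median of -0.03. Pias1, an inhibitor of cytokine signalling, was at 74.4 and 71.5 CPM in Dnmt3a KO, against 75.1, 67.0 and 71.1 CPM in DKO. Its groups overlapped (adjusted p = 0.914).

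The list of oligoadenylate synthetases, which detect double-stranded RNA and make a small messenger, and of their pathway showed the lowest median of the interferon lists. Of its 9 tested members 4 were called lower, with a list median of -1.86. Oas2 (chromosome 5, 120730333 to 120749886) was at 40.6 and 45.3 CPM in Dnmt3a KO, against 8.74, 4.001 and 7.15 CPM in DKO. The DKO values surrounded the 8.26 and 7.01 CPM of WT. Its log2 fold change was -2.69 (SE 0.313, adjusted p = 0.0185). Oas3, whose promoter is printed above, was at 40.3 and 38.5 CPM in Dnmt3a KO, against 9.76, 5.66 and 10.96 CPM in DKO (log2 -2.16, SE 0.225, adjusted p = 0.0123). Oas1a fell from 41.7 and 40.0 CPM to 13.9, 9.94 and 10.3 CPM, and Oasl2 from 31.0 and 23.3 CPM to 7.95, 5.05 and 9.36 CPM. In each of these 4 genes the groups were clearly apart. Oasl1 (log2 -2.30, adjusted p = 0.0697) and Oas1g (log2 -2.71, adjusted p = 0.471) missed the test. The Oas1 genes are close copies, and how the authors' counting split reads between them was not given in the sources used here.

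Sensors of double-stranded RNA formed the second group. All 10 tested members had negative fold changes, 5 were called lower, and the median was -0.57. Adar, which edits adenosines in double-stranded RNA, was at 149 and 139 CPM in Dnmt3a KO, against 101, 86.1 and 92.5 CPM in DKO (log2 -0.63, SE 0.0802, adjusted p = 0.0212). Dhx58, the RIG-I relative Lgp2, was at 27.6 and 21.99 against 10.3, 11.3 and 10.9 CPM (log2 -1.20, SE 0.148, adjusted p = 0.0212). Ddx58, which is RIG-I, was at 60.6 and 54.3 against 36.4, 38.6 and 34.0 CPM. It was the only 1 of the 25 called genes whose DKO libraries all remained above WT, which was at 30.9 and 28.8 CPM. Ifih1, which encodes Mda5, was at 66.0 and 59.6 against 41.7, 36.3 and 38.1 CPM. Eif2ak2, the kinase PKR that halts translation, was at 135 and 114 against 81.1, 74.0 and 82.6 CPM, with an adjusted p of 0.0495 just inside the threshold. Groups were apart in all 5. The predicted gene Gm6548 overlaps Eif2ak2, and reads of the pair cannot be told apart without the strand setting. Mavs, the adaptor that RIG-I and Mda5 share, was at 26.6 and 27.2 against 25.4, 19.7 and 21.5 CPM and was not called (log2 -0.28, adjusted p = 0.642).

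**Figure D1:**
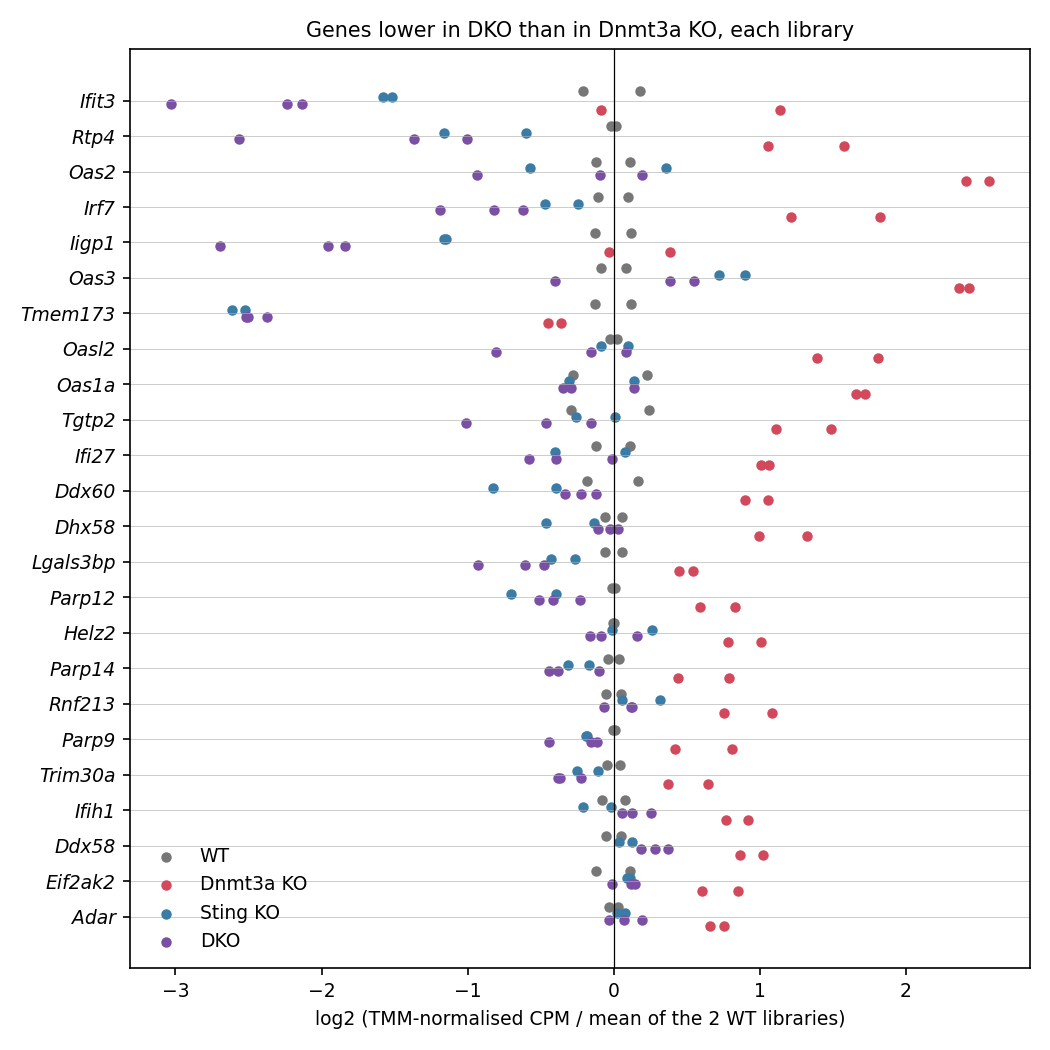
Levels of 24 of the 25 called genes in the 9 c-kit+ libraries, as log2 of CPM over the mean of the 2 WT libraries (x axis), with 1 point per library and 1 row per gene; Usp26 is left out because WT had 0 reads. The Dnmt3a KO points lie to the right of all DKO points in every row, and in 10 rows all DKO points lie below both WT points.

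The interferon-inducible GTPases, which attack the membranes around intracellular microbes, had negative fold changes in all 18 tested members, with a median of -0.89, and 2 were called. Tgtp2 was at 32.7 and 25.1 CPM in Dnmt3a KO, against 10.4, 5.77 and 8.42 CPM in DKO (log2 -1.81, SE 0.247, adjusted p = 0.0276). Iigp1 was at 6.02 and 4.52 against 1.29, 0.71 and 1.19 CPM (log2 -2.30, SE 0.284, adjusted p = 0.0212). For Iigp1 the DKO libraries also lay below WT (4.22 and 5.01 CPM), and the comparison of DKO with WT passed the test (log2 -2.11, adjusted p = 0.0133). Irgm1, with 84.8 and 62.3 against 41.3, 26.99 and 35.03 CPM, stood just outside the threshold (adjusted p = 0.0582). Tgtp1 and Tgtp2 are close copies. Among Ifit and Ifitm genes, which block viral RNA and viral entry, 1 of 10 was called and the fold changes were mixed, 6 negative and 4 positive, with a median of -0.24. At an unadjusted p under 0.05, 3 were lower and 3 higher. Ifit3 was at 5.50 and 2.35 CPM in Dnmt3a KO, against 0.53, 0.31 and 0.57 CPM in DKO (log2 -3.06, SE 0.420, adjusted p = 0.0276). Its 2 Dnmt3a KO libraries differed more than those of most called genes, and Ifit3b is a close copy. Ifitm1 had the opposite sign, from 17.3 and 16.1 to 20.2, 38.0 and 79.0 CPM (log2 1.45, SE 0.463), and it was not called (adjusted p = 0.612).

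The list of ubiquitin-like, PARP and other interferon-stimulated genes held most of the remaining calls, 8 of 38 tested, with 35 negative fold changes and a median of -0.82. Lgals3bp, a secreted glycoprotein, was at 150 and 140 CPM in Dnmt3a KO, against 73.9, 54.1 and 67.7 CPM in DKO. All DKO libraries were below the 98.7 and 107 CPM of WT. Its log2 fold change was -1.15 (SE 0.120, adjusted p = 0.0123). Rtp4 was at 20.3 and 14.2 against 3.401, 1.15 and 2.64 CPM (log2 -2.84, SE 0.362, adjusted p = 0.0212). Trim30a, a ubiquitin ligase, was at 114 and 94.2 against 56.0, 56.5 and 62.2 CPM (log2 -0.84). Ifi27 was at 36.2 and 34.8 against 17.2, 11.6 and 13.1 CPM (log2 -1.35, adjusted p = 0.0276). Groups were apart in all 4. The ADP-ribosyltransferases Parp9, Parp12 and Parp14 fell together, by 0.86, 1.09 and 0.93 on the log2 scale, as did the helicase-like Ddx60, by 1.20. Ifi44l lay the other way, at 0 CPM in both Dnmt3a KO libraries and at 2.61, 0.54 and 0.05 CPM in DKO, and was not called (adjusted p = 0.613). Isg15 was listed at 0 reads in all 9 libraries. The reason was not tested, so its expression cannot be judged from these counts. Usp18, which removes Isg15 from proteins, was at 13.04 and 9.15 against 5.31, 3.19 and 1.97 CPM and missed the test (adjusted p = 0.289).

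Helz2, a helicase that acts as a transcriptional coactivator, and Rnf213, a large ubiquitin ligase, were called although they stood in no list. Helz2 was at 98.5 and 84.3 CPM in Dnmt3a KO, against 54.6, 43.6 and 46.0 CPM in DKO (log2 -0.93, SE 0.120, adjusted p = 0.0225). Rnf213 was at 435 and 346 against 223, 223 and 196 CPM (log2 -0.87, SE 0.114, adjusted p = 0.0226). In both genes the DKO values surrounded those of WT, 48.8 to 49.0 CPM for Helz2 and 197 to 212 CPM for Rnf213. Usp26 had another pattern. This X-linked deubiquitinase, known mainly from testis, had 163 and 191 reads in the Dnmt3a KO libraries and 0 in the 7 other libraries, DKO 1 included. Against a limit of 3 reads over the 3 DKO libraries, its level was at least 183-fold lower in DKO.

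**Figure D2:**
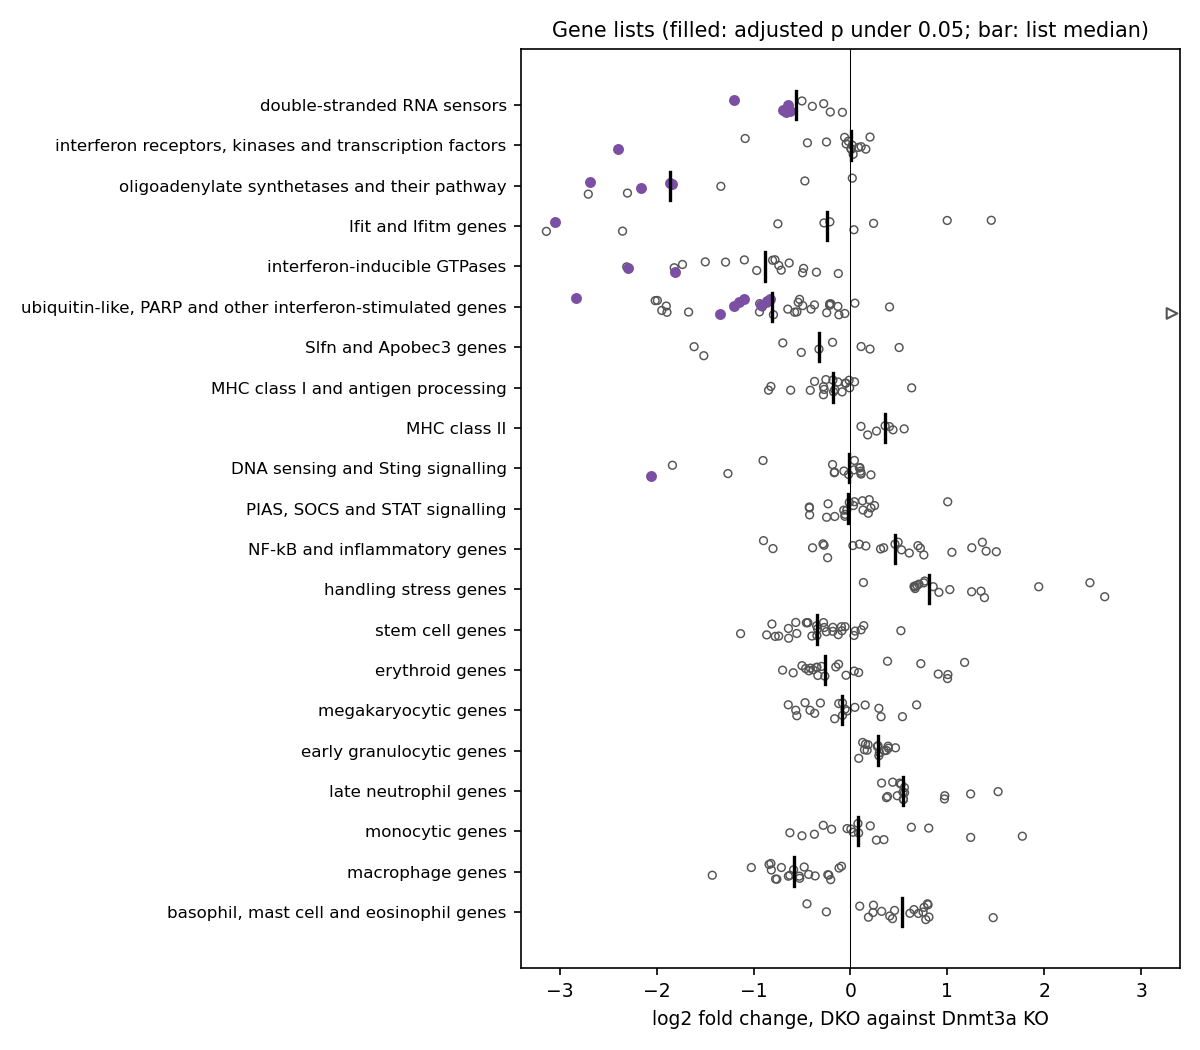
Log2 fold change of DKO against Dnmt3a KO (x axis) for each tested member of 21 gene lists (rows), with filled points for an adjusted p under 0.05 and a bar at each list's median. Filled points lie in the interferon lists, plus Tmem173, and the triangle at the right edge is Ifi44l, beyond the axis because Dnmt3a KO had 0 reads.

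Over the 6 interferon lists together, 84 of 100 tested genes had negative fold changes, beside 47.3% of all tested genes, and the median was -0.65. In 67 of the 100 all DKO libraries were below both Dnmt3a KO libraries, and in 4 all were above. The mean log2 level of these genes, set against WT, was 0.56 and 0.40 higher in the Dnmt3a KO libraries and 0.12, 0.37 and 0.12 lower in DKO 1, 2 and 3 (-0.115, -0.368 and -0.123). In Sting KO it was -0.12 and -0.25. The 2 WT libraries lay at 0.025 and -0.025. All 3 DKO libraries were thus below both WT libraries on this mean, and only the Dnmt3a KO libraries were above them. Both Dnmt3a KO libraries carried Xist and both WT libraries Y-chromosome transcripts. Between Dnmt3a KO and WT, genotype and that difference therefore cannot be told apart. Of the 25 called genes, Dnmt3a KO exceeded WT without overlap in 22. DKO overlapped the range of WT in 14, lay below it in 10 and above it in 1. The test of DKO against WT passed for 4 of the 25, all lower: Tmem173, Lgals3bp, Iigp1 and Ifit3. These comparisons share libraries, so their values are given side by side only. The 25 genes were picked with the same Dnmt3a KO and DKO libraries. Shares of all tested genes lying apart from WT are not given here.

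MHC class I genes, many of them also induced by interferon, were not called. Of 20 tested, 0 passed the test and 9 were lower at an unadjusted p under 0.05, while 18 fold changes were negative. Of all 16026 tested genes 0.156% were called, 647 were lower and 621 higher unadjusted, and 47.3% had negative fold changes. In 12 of the 20 all DKO libraries were below both Dnmt3a KO libraries, and in 1 all were above. Over all tested genes 12.8% lay below and 12.6% above. B2m, the light chain of all class I molecules, was at 656 and 669 CPM in Dnmt3a KO, against 591, 569 and 508 CPM in DKO (log2 -0.25, adjusted p = 0.609). H2-D1 was at 459 and 493 against 448, 491 and 475 CPM, with overlapping groups. H2-Q7 was at 23.3 and 25.3 against 15.5, 10.3 and 14.7 CPM (log2 -0.85, adjusted p = 0.186). Slfn and Apobec3 genes had 0 of 9 called and 5 lower at an unadjusted p under 0.05. NF-kB and inflammatory genes, the other arm of Sting signalling, had 0 of 23 called (1 lower and 2 higher unadjusted). Of their fold changes 17 were positive, with a median of 0.46. Their sums were 400.4 and 440.4 CPM in Dnmt3a KO, against 480.2, 873.5 and 443.6 CPM in DKO. DKO 2 thus stood apart, and DKO 3 was close to Dnmt3a KO. Tnfaip3 and Nfkb1, the most abundant members of the list, were not called.

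No marker gene of a blood cell type passed the edgeR test, and the lists are given by their counts. Of all 16026 tested genes 0.156% were called, 647 were lower and 621 higher at an unadjusted p under 0.05. Fold changes were negative in 47.3% of them. Stem cell genes had 0 of 30 called, 12 lower at an unadjusted p under 0.05, and negative fold changes in 25 (median -0.34). They summed to 1659 and 1662 CPM in Dnmt3a KO and, in DKO, to 1556, 1408 and 1394 CPM, so the groups did not overlap. Kit, the receptor by which the cells were defined, was at 391 and 364 CPM in Dnmt3a KO, against 340, 369 and 328 CPM in DKO, overlapping. Late neutrophil genes had positive fold changes in 16 of 16 members (median 0.54), 4 of them at an unadjusted p under 0.05. They summed to 16320 and 18440 CPM in Dnmt3a KO and, in DKO, to 25360, 36180 and 12420 CPM, so DKO 3 lay below both Dnmt3a KO libraries and DKO 2 was highest. Cxcr2, a neutrophil chemokine receptor, came nearest to the threshold, at 27.4 and 30.3 against 54.3, 71.1 and 78.9 CPM (log2 1.24, adjusted p = 0.0746). Genes of basophils, mast cells and eosinophils were positive in 18 of 20 (median 0.54; 9 at an unadjusted p under 0.05), with sums of 2684 and 2050 against 3548, 3172 and 4372 CPM. Macrophage genes were negative in 21 of 21 (median -0.59; 2 at an unadjusted p under 0.05). Their sums were 990 and 1105 against 975, 630 and 897 CPM, all DKO libraries lying below both Dnmt3a KO libraries. Of the 21, Marco and Timd4 were at 0 in DKO 2. Genes of handling stress were positive in 18 of 18 (median 0.81; 1 at an unadjusted p under 0.05), with sums of 2141 and 1930 against 2721, 6161 and 1676 CPM. DKO 2 thus stood apart, and it was also the lowest DKO library in 18 of the 25 called genes. Without DKO 2, 17 genes were called, 16 of them among the 25, and the median of the interferon lists was -0.57. The part of these lists in the interferon result was not tested beyond that.

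**Figure D3:**
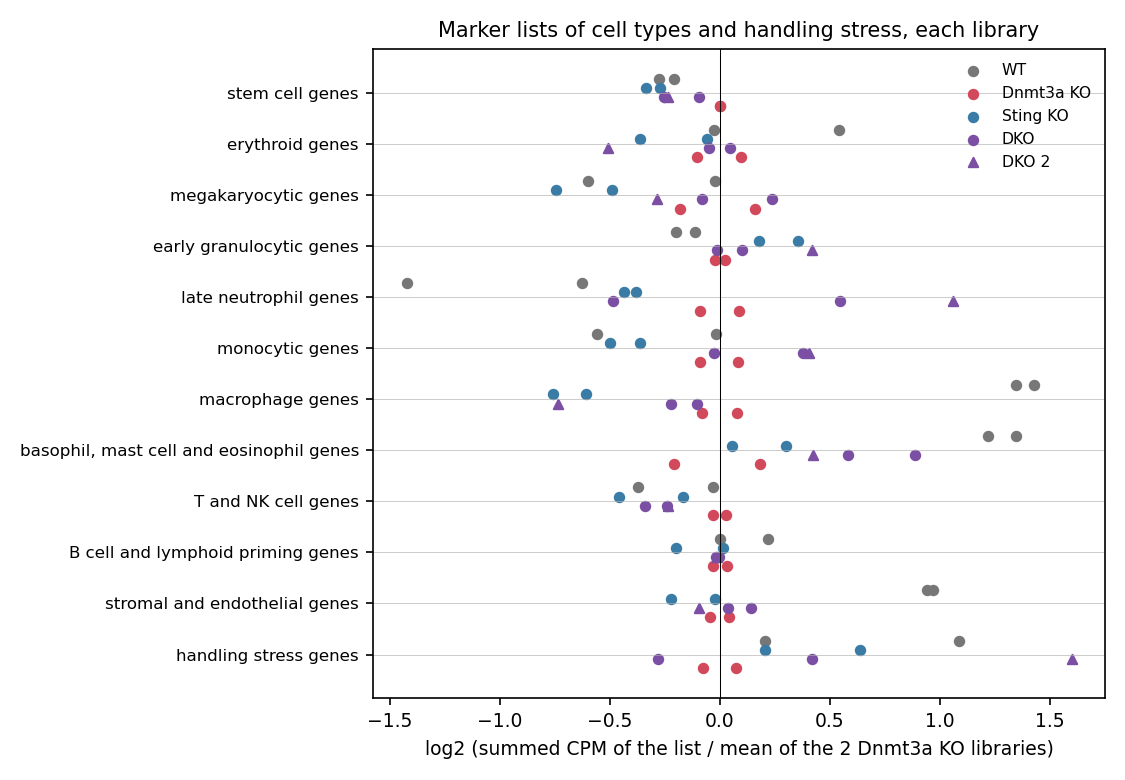
Summed CPM of each marker list (rows) in each c-kit+ library, as log2 over the mean of the 2 Dnmt3a KO libraries (x axis), with DKO 2 as a triangle. DKO 2 is highest for handling stress (6161 CPM) and late neutrophil genes (36180 CPM), and WT stands apart for macrophage genes.

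The loss of Sting with Dnmt3a present was read in the same fit. In Sting KO against WT, which shares no library with the main comparison, 124 of all tested genes were called (0.774%). The interferon lists had 0 of 100 called, with 13 lower and 2 higher at an unadjusted p under 0.05, and a median of -0.12. Their fold changes were negative in 71 and positive in 29. Over all tested genes 922 were lower and 923 higher unadjusted, and fold changes were negative in 7958 and positive in 8068. Sting KO lay below WT without overlap in 12 of the 25 genes, above it in 2, and overlapped it in 11. The share of all tested genes lying so is not given here, so these counts show no excess by themselves. Of the 25 genes, only Tmem173 passed there, with WT at 54.2 and 64.5 CPM and Sting KO at 10.3 and 9.72 CPM. The difference between the 2 effects of Sting loss was tested directly as an interaction. Of the 25 genes it passed the test for Oas3 alone (log2 -2.97, SE 0.342, adjusted p = 0.0136). WT held Oas3 at 7.92 and 7.04 CPM and Sting KO at 13.9 and 12.3 CPM, so both Sting KO libraries lay above WT, a difference that missed the test (log2 0.81, adjusted p = 0.232). The Oas3 interaction lost its call without WT 1 (adjusted p = 0.0893), WT 2 (0.0879), Dnmt3a KO 1 (0.0826), Dnmt3a KO 2 (0.0699) or Sting KO 1 (0.0508), and with a term for Xist (0.109). Irf7 and Rnf213 stood just outside (adjusted p = 0.0536 each, log2 -2.05 and -1.06). For most interferon genes a larger fall without Dnmt3a was therefore not shown by the test. Interaction values were negative in 81 of the 100 interferon-list genes and positive in 19, with a median of -0.47. Over all tested genes 7755 were negative and 8271 positive (median 0.01), and the trend of the lists was not tested. Across all 16026 genes the 2 effects had a Pearson r of 0.05 and a Spearman rho of 0.16, a description over genes, which are not independent replicates.

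Over all tested genes 24 were called in the interaction (0.150%), 12 in each direction, and the count ran from 2 without Dnmt3a KO 2 to 128 without DKO 2. Leaving out WT 1 gave 5, WT 2 gave 7, Dnmt3a KO 1 gave 4, Sting KO 1 gave 15, Sting KO 2 gave 13 and DKO 1 gave 41. Apart from Oas3, none of the 24 was called in DKO against Dnmt3a KO. Prg2, the eosinophil major basic protein, was at 2736 and 2884 CPM in WT, and Sting KO held 1332 and 1078 CPM. Dnmt3a KO held 1146 and 875 CPM, against 1606, 1494 and 1999 CPM in DKO. WT stood above all 7 other libraries. Vcam1, an adhesion molecule of marrow macrophages and stroma, was at 546 and 555 CPM in WT, 182 and 194 in Sting KO, 314 and 305 in Dnmt3a KO, and 325, 277 and 253 in DKO, again highest in WT. Apobec3, a cytidine deaminase that restricts retroviruses, was at 67.3 and 68.5 CPM in WT and between 152 and 234 CPM in the 7 other libraries. Summed macrophage genes were at 2820 and 2664 CPM in WT and at 619 to 1105 CPM in all others. These markers of other cell types move with the Sting KO against WT comparison and so with the interaction, and their part in it was not tested.

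**Figure D4:**
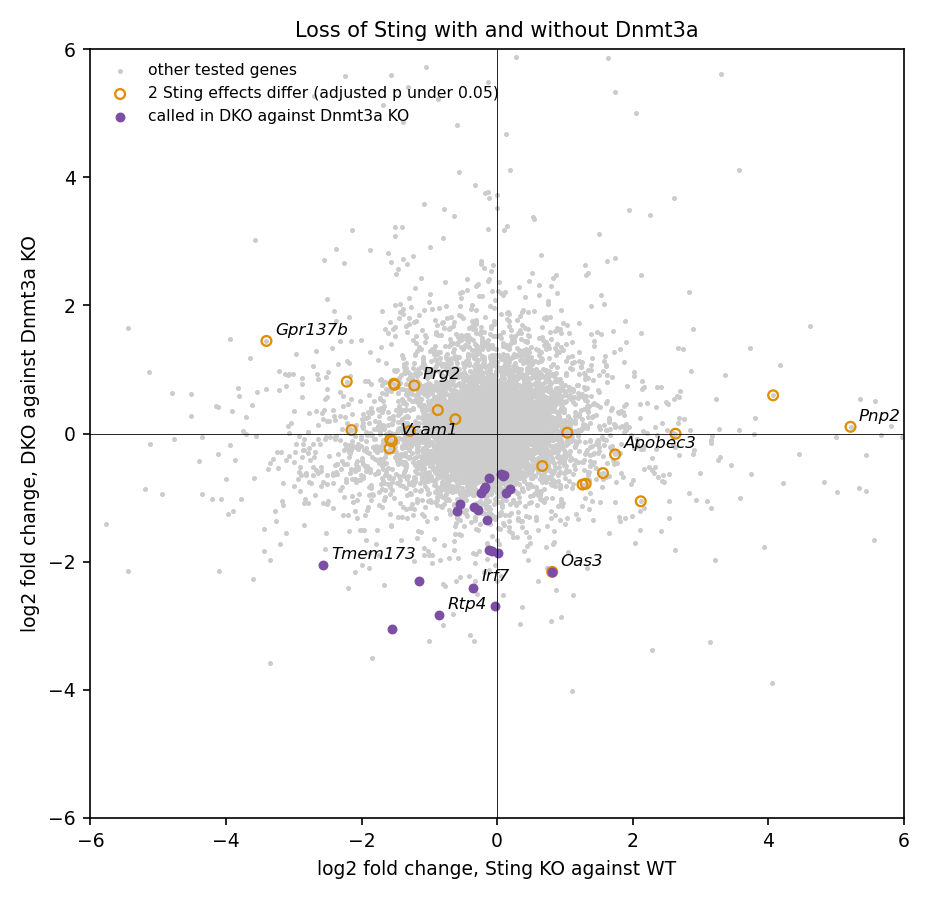
Log2 fold change of each tested gene in Sting KO against WT (x axis) and in DKO against Dnmt3a KO (y axis). Filled points are genes called in DKO against Dnmt3a KO, circles are genes called in the interaction, and 39 genes lie beyond the axes. Most filled points lie low on the vertical axis and near 0 on the horizontal one.

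Transposable elements were read because their double-stranded RNA and DNA copies can engage the same sensors. Total TE reads per 100 gene reads were 3.53 and 3.73 in Dnmt3a KO and 3.34, 3.61 and 3.46 in DKO. The groups overlapped, and the difference was -0.153 (two-sided exact permutation test, p = 0.4, where 3 against 2 libraries cannot go below 0.2). It was -0.253 without Dnmt3a KO 1, -0.0537 without Dnmt3a KO 2 and -0.0879 without DKO 1. Of 917 tested subfamilies 1 was called (0.109%). ERVB2_1-I_MM-int, the internal part of an endogenous retrovirus of the ERVK family, had 101 and 64 reads in Dnmt3a KO and 17, 6 and 15 reads in DKO. WT had 42 and 43 reads and Sting KO 32 and 15. In CPM it was at 2.75 and 2.28 against 0.50, 0.20 and 0.40, with groups apart (log2 -2.74, SE 0.338, adjusted p = 0.000528). This call held without each of the 9 libraries and with DKO 1 alone (adjusted p = 0.000579), and was lost with a term for Xist (log2 -2.33, adjusted p = 0.101). MTB_Mm-int came next, at 10.3 and 9.36 against 6.95, 5.09 and 5.10 CPM (log2 -0.79, adjusted p = 0.0627). The murine leukaemia virus element RLTR4_MM-int was at 544 and 319 CPM in Dnmt3a KO, while DKO held 226, 173 and 290 CPM. WT libraries held 207 and 206 CPM and those of Sting KO 771 and 562 CPM. All WT and DKO libraries thus lay below both single knockouts, and its fall in DKO missed the test (log2 -0.91, SE 0.209, adjusted p = 0.121). Its rise in Sting KO over WT passed (log2 1.69, adjusted p = 0.00269), and so did the interaction (log2 -2.60, SE 0.315, adjusted p = 0.000423), 1 of 4 subfamilies called there (0.436%). With TE reads as library sizes that interaction missed the test (adjusted p = 0.0821). Genes that silence transposable elements had 0 of 24 called (4 lower at an unadjusted p under 0.05) and a median of -0.08.

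**Figure D5:**
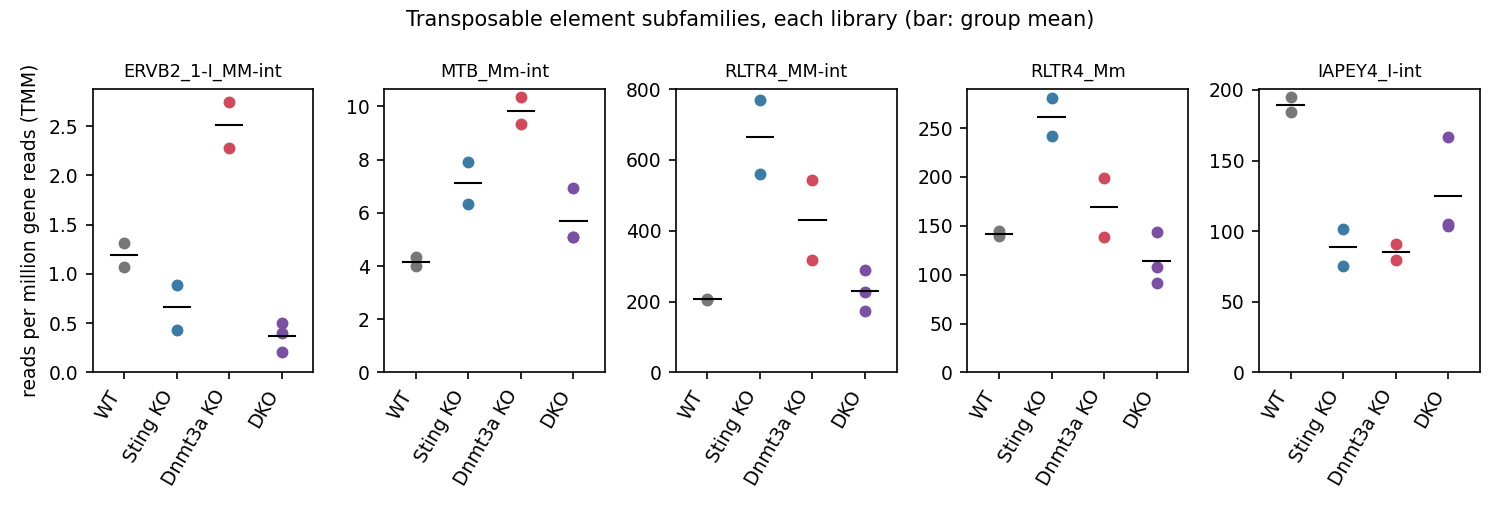
Level in CPM (y axis, from 0) of 5 TE subfamilies in each c-kit+ library by genotype, with a bar at each group mean. ERVB2_1-I_MM-int is lowest in DKO, and RLTR4_MM-int is high in both single knockouts.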

How the data were processed

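Polyadenylated RNA of c-kit+ bone marrow cells was turned into cDNA by a modified form of SMART-Seq2, per the labels' protocols. The authors deposited tables of raw counts, 1 of gene symbols and 1 of TE subfamilies. Reads were processed with Trim Galore 0.6.7, HISAT2, featureCounts 2.0.1 and DESeq2 1.34.0 on mm10, per the submitters' processing notes. Annotation, strandedness and the handling of multi-mapping and TE reads were not given in the sources used here, so close copies, overlapping and antisense genes may share reads. Of the columns of each table, 31 belong to other populations or were not used. Of 35976 gene symbols, 32501 matched GRCm38.p6 gene names and 1005 an older name.

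Counts were tested in R 4.3.3 with edgeR 4.0.16 (TMM, filterByExpr with a minimum count of 10 and a minimum total of 15, quasi-likelihood test, Benjamini-Hochberg adjustment, threshold 0.05) over 9 libraries in 4 genotype groups. The interaction was the effect of Sting loss without Dnmt3a minus its effect with Dnmt3a. TE counts were scaled by the gene tables' sizes and TMM factors. TE shares were compared by exact permutation tests. Replicates of a group differed beyond sampling noise. Alternatives were DESeq2 1.42.0, limma 3.58.1 (voom with quality weights), RLE in place of TMM, no low-count filter and a replicate block. Further runs used only the groups compared, a term for Xist, TE library sizes, other TE denominators, or left out each library. A last run held DKO 1 as the only DKO library and kept the Dnmt3a KO, WT and Sting KO libraries. Figures were drawn in Python 3.11.15 with matplotlib 3.10.9.

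The groups, gene lists, alternatives and naming rule were chosen with earlier results of these data known. Eligible for naming were Dnmt3a, Tmem173, Pias1, Xist and Y genes, and up to 5 called members per list. Lists with no call gave their 2 members with the highest counts. Up to 15 genes per direction and contrast with the largest called changes were eligible too. These had a mean of at least 5 CPM, groups that do not overlap and no predicted-gene symbol. Not every eligible gene appears in the text. Up to 8 called TE subfamilies per direction and 4 promoters are also named. Other genes named in the text, such as Irf9, Zbp1, Ifitm1 and Cxcr2, were chosen after their values were seen. Up to 33 gene lists were examined, and those without a call that are not described had no called gene.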

Additional observations from a re-analysis of the deposited data

Results flagged for a closer look

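The results below are those in which the effect of Sting loss differed between the Dnmt3a-null and the Dnmt3a wild-type background by the interaction test (edgeR, adjusted p under 0.05), among the genes picked by the naming rule. Positive interaction values mean a higher effect without Dnmt3a. On the positive side were Gpr137b (4.85), which stood in no list, 4 members of the basophil, mast cell and eosinophil list, Alox15 (3.03), Ear2 (2.30), Ear1 (2.27) and Prg2 (1.97), and 3 of the macrophage list, Trf (1.48), Vcam1 (1.43) and Slc40a1 (1.35). Serpinb6a (1.33), Ctsh (1.24) and Lgals8 (0.84) followed. Slc40a1, the iron exporter, was at 405 and 393 CPM in WT, 122.9 and 143 CPM in Sting KO, 217 and 225 CPM in Dnmt3a KO, and in DKO at 222, 164 and 179 CPM. The 3 DKO libraries all lay above both Dnmt3a KO libraries for Gpr137b, Alox15, Ear2, Ear1, Prg2, Ctsh and Lgals8.

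On the negative side were Pnp2 (-5.11), Oas3 (-2.97), Ppp1r3e (-2.63), Hist1h4i (-2.18), Ero1lb (-2.09), Apobec3 (-2.07), Slfn9 (-1.17) and Pnp (-1.02). Pnp2, a purine nucleoside phosphorylase, was at 0.19 and 0.55 CPM in WT and between 11.1 and 17.5 CPM in the 7 other libraries. Its neighbour Pnp on chromosome 14 was at 138 and 167 CPM in WT and between 288 and 329 CPM in the others. For Pnp2, Pnp and Apobec3 the WT libraries therefore stood apart from all 3 knockout genotypes. Some of the genes on both sides lie close together. Lgals8, Ero1lb and Gpr137b start at bases 12439402, 12565818 and 13357620 of chromosome 13. Pnp, Pnp2 and Ppp1r3e start at bases 50944303, 50956141 and 54875597 of chromosome 14. The part of position in these calls was not tested.

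Among TE subfamilies the interaction passed for IAPEY4_I-int (1.65), MTB_Mm-int (-1.56), RLTR4_MM-int (-2.60) and RLTR4_Mm (-1.44). IAPEY4_I-int was at 184 and 195 CPM in WT, 102 and 75.6 CPM in Sting KO, 90.6 and 79.4 CPM in Dnmt3a KO, and in DKO at 103, 105 and 167 CPM.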

How the results depend on the processing

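All 25 genes kept a negative fold change in every alternative run, and the median of the interferon lists stayed between -0.514 and -0.716. How many genes passed the test depended strongly on the setting, and the cause was not tested. With DKO 1 as the only DKO library and all other groups kept, the median of the interferon lists was -0.557. For DKO against Dnmt3a KO the count of 25 became 99 with DESeq2 (28 higher, 71 lower) and 415 without a filter (224 higher, 191 lower). The count was 11 with the replicate block, 1 with only the groups compared and 1 with a term for Xist. It was 1 to 74 when single libraries were left out: 1 without Dnmt3a KO 1, 2 without Dnmt3a KO 2, 74 without DKO 1, 9 without DKO 3 and 14 without WT 1. Interferon-list genes called lower, 21, became 42 with DESeq2, 53 without a filter and 8 with the replicate block. They were 0 with only the groups compared, 0 with a term for Xist, and 7 to 25 without single DKO libraries. Without either Dnmt3a KO library nearly all these calls were lost, with 1 library then left in that group. The median of the interferon lists was -0.514 without Dnmt3a KO 1 and -0.716 without Dnmt3a KO 2. Leaving out a WT or Sting KO library also gave fewer calls than 21. The interaction count of 24 became 199 with DESeq2, 446 without a filter, 59 with voom and 5 with a term for Xist. It was 2 to 128 without single libraries, and 109 with DKO 1 as the only DKO library. That run kept the WT and Sting KO libraries, which carried Y-chromosome transcripts, so its interaction still mixed them with Xist libraries. The TE count of 1 became 2 with DESeq2, 4 without a filter, 5 with the replicate block and 0 with a term for Xist. It was 6 with DKO 1 as the only DKO library, and 1 to 5 without single libraries. The TE interaction count of 4 became 12 with DKO 1 as the only DKO library and 0 with TE library sizes.

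Replicate numbers did not pair the libraries (correlations of same-numbered deviations from -0.119 to 0.094). Of the 11 calls under the block, 10 were among the 25. Without single libraries, the differences in reads per 100 gene reads changed sign: ERVK ran from -0.0413 to 0.00315, IAP from -0.00318 to 0.0187, ERVL-MaLR from -0.0248 to 0.002, L1Md elements from -0.00803 to 0.00103, SINE from -0.126 to 0.00861 and DNA elements from -0.0111 to 0.000601. Groups of 2 and 3 libraries limit the precision throughout, beside a depth of at least 27.4 M gene reads. The interaction with only the groups compared uses all 4 groups and was not run.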
